A study of Homo sapiens with 6 samples.

Results

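The small leucine-rich proteoglycans (SLRPs) are secreted proteins of the extracellular matrix, and lumican, encoded by LUM, is 1 of them. The 10 genes described here were LUM, DCN, BGN, FMOD, OGN, PRELP, ASPN, OMD, KERA and EPYC, and they were chosen by their values in the same arrays and the same contrast that are described below, among 22411 genes in all. Differences between the groups are therefore given for these genes as a description, with a standard error and no test. Each gene stands for the brightest of the array's transcript clusters that carry its symbol, where a transcript cluster is the array's unit for the probes of 1 locus. All 10 genes were on the array and no filter on low values was applied. DCN had 2 clusters and the other 9 genes had 1 each.

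RH30 is an established line from a human alveolar rhabdomyosarcoma, a tumor with features of skeletal muscle. RH30 vector cells had been infected with the empty retroviral vector, and RH30-IκBα SR cells with the same vector carrying the IκBα super repressor, a mutant IκBα that cannot be degraded on signaling and so holds classical NF-κB in the cytoplasm. Both groups were grown in DMEM with 10% fetal bovine serum, and total RNA from 3 cultures of each was hybridized to an Affymetrix Human Transcriptome Array. Expression of the super repressor was stable, and the sources used here do not say whether a group was 1 infected population or several. Values are on a log2 scale as deposited, so that a difference of 1 is a doubling.

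NFKBIA, the gene that the super repressor carries, checked the labels. It read 11.61, 11.66 and 11.58 in vector arrays 1 to 3 and 13.55, 13.74 and 13.57 in IκBα SR arrays 1 to 3, a difference of 2.00 (standard error 0.06, adjusted p = 0.00014 from limma). Array medians over all features lay between 4.344 and 4.398. Over all 22411 genes, 4110 (18.3%) passed an adjusted p of 0.05, with 2188 (9.76%) higher under the super repressor and 1922 (8.58%) lower. Calls were unevenly spread over brightness, at 34.2% of genes at or above the median gene and 2.50% of genes below it. Of the muscle markers, MYOD1, the myogenic master regulator, lay between 12.6 and 12.7 in vector arrays, and DES, the muscle intermediate filament, was 14.71 in all 3. These were bright members of a list of 14 muscle and rhabdomyosarcoma markers, of which 5 lay below the median gene in both groups.

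SLRP proteins share a core of leucine-rich repeats, a motif that folds into a curved surface which in several of them lies against collagen. Decorin and biglycan carry chondroitin or dermatan sulfate chains, lumican, fibromodulin and keratocan can carry keratan sulfate, and together they set the diameter and spacing of collagen fibrils in cornea, tendon, skin and cartilage. Several also bind growth factors and cell surface receptors, among them TGF-β, EGF receptor and Toll-like receptors, and fibroblasts and other connective tissue cells are their usual source.

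The genes lie in a few runs on the chromosomes. EPYC, KERA, LUM and DCN lie side by side within 219 kb of chromosome 12, OGN, OMD and ASPN within 99.2 kb of chromosome 9, and FMOD and PRELP within 151 kb of chromosome 1, while BGN lies alone on the X chromosome (RefSeq, GRCh38.p14). Of these, 6 had an upstream sequence in the RefSeq table used here: BGN, FMOD, OGN, PRELP, ASPN and EPYC. LUM, DCN, KERA and OMD are only named. In the 250 bases before the annotated start, the κB consensus (the motif that NF-κB dimers bind, searched on both strands) had a match in 0 of the 6, against 9.58% of 27305 windows of the same length. TATAAA, the sequence of the core promoter TATA box, was found in FMOD, OGN and EPYC and in 11.2% of all windows. Matches began at base 74 in FMOD, 172 in OGN and 89 and 166 in EPYC, counted from the 5′ end. A match anywhere in the window was counted, so none is shown to be a TATA box. CANNTG, the E-box of MyoD and related factors, was found in OGN and ASPN and in 62.2% of all windows. TGANTCA, the AP-1 motif, was found in 0 of the 6 and in 6.57% of all windows. Every motif was searched on both strands, and no matches overlapped in these 6 windows.

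The EPYC window is shown because EPYC was the only gene of the chromosome 12 run with a window and holds 2 TATAAA matches, written in capitals, which begin at bases 89 and 166 counted from the 5′ end. It covers chr12:91004973-91005222 on the minus strand. The TSKU window, chr11:76783106-76783355 on the plus strand, is shown because TSKU was the only gene of the wider family that passed the test, and it held none of the 4 motifs.
EPYC: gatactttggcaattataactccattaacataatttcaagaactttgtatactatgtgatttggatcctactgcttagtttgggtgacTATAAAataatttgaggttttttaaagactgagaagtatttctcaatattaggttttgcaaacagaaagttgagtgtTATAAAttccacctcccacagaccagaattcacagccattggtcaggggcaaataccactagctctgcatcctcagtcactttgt
TSKU: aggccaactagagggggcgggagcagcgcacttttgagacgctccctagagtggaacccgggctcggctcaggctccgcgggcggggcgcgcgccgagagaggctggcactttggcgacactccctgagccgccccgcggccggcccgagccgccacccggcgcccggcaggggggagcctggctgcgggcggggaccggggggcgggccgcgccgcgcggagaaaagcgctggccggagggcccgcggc
The pair differ in composition. EPYC has 0 CG dinucleotides and 35.6% G and C, and TSKU has 35 CG dinucleotides and 78.8% G and C, against medians of 10 and 57.6% over all windows. Among the chosen genes, OGN and PRELP also had 0 CG dinucleotides, ASPN had 3, FMOD 9 and BGN 16.

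LUM was the only 1 of the 10 genes whose groups did not overlap. It read 4.45, 4.58 and 4.61 in vector arrays 1 to 3 and 5.76, 6.43 and 6.12 in IκBα SR arrays 1 to 3. Every IκBα SR array lay more than a log2 unit above every vector array, and the IκBα SR arrays were also farther apart from each other, with an SD of 0.34 against 0.08 (n = 3 each). The mean was 4.55 in vector and 6.10 in IκBα SR cells, a difference of 1.56 (standard error 0.19), or 2.94-fold on a linear scale. The vector values lay close to the array medians over all features, and detection above background was not assessed, so 2.94 is a ratio of RMA values and LUM RNA above background in vector cells is not shown. In the ranking of all genes on the array, 41.9% lay below LUM in vector cells and 59.2% in IκBα SR cells, so that it passed from below the median gene (5.13) to above it. Over all genes 29.6% had groups that did not overlap, and since LUM was selected on this contrast nothing is read from that share. With any 1 array left out, the difference stayed between 1.39 and 1.73. LUM spans chr12:91102629-91111494.

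**Figure D1:**
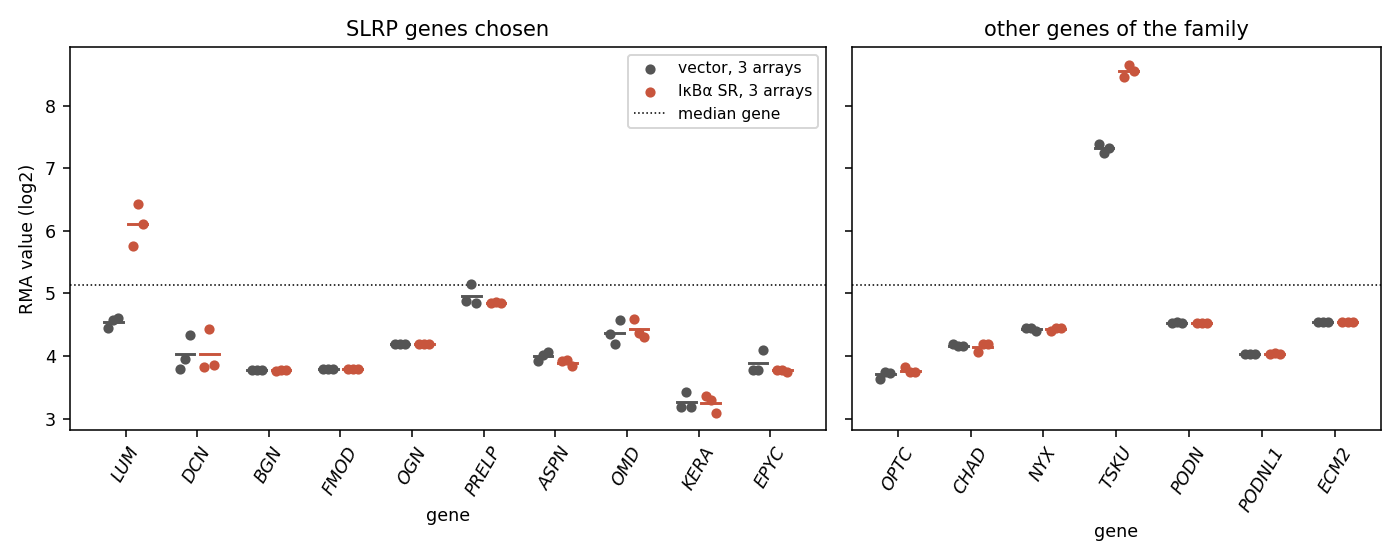
RMA value (log2, vertical axis) of each chosen SLRP gene (left) and of 7 other genes of the family (right) on each of 3 vector and 3 IκBα SR arrays; points are arrays, horizontal bars are group means and the dotted line is the median gene at 5.13. LUM is the only chosen gene with separate groups, at 4.45 to 4.61 in vector and 5.76 to 6.43 in IκBα SR arrays.

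Decorin, biglycan and asporin form the first class of the family. DCN, whose protein coats collagen fibrils and binds TGF-β, lies next to LUM (chr12:91140484-91182817). It read 3.79, 3.95 and 4.34 in vector arrays and 3.82, 4.43 and 3.86 in IκBα SR arrays. The groups overlapped over nearly their whole range, with 1 array in each group standing above the others. The difference was 0.01 (standard error 0.24), the least precise of the 10 genes, and it ran from -0.18 to 0.17 as single arrays were left out. The second DCN cluster was lower still, at 3.40, 3.40 and 3.65 in vector and 3.40, 3.42 and 3.40 in IκBα SR arrays. Both clusters thus overlapped between the groups.

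BGN, whose protein signals through Toll-like receptors when it is released from matrix (chrX:153494980-153509546), read 3.77 on all 6 arrays, and the values of 5 arrays were identical. ASPN, which encodes a collagen-binding protein with an aspartate-rich end (chr9:92456205-92482506), read 3.92, 4.02 and 4.07 in vector arrays and 3.92, 3.93 and 3.84 in IκBα SR arrays. The ASPN groups overlapped only at their edges, and the difference was -0.11 (standard error 0.05).

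Fibromodulin, PRELP, keratocan and osteomodulin belong with lumican to the second class. FMOD, whose protein shares binding sites on collagen with lumican (chr1:203340628-203351122), had the identical value, 3.79, on all 6 arrays. PRELP, which links collagen to heparan sulfate in basement membranes (chr1:203475806-203491352), was 4.88, 5.16 and 4.84 in vector arrays and 4.84, 4.86 and 4.84 in IκBα SR arrays. A single vector array carried its difference of -0.11 (standard error 0.09), which was -0.02 without that array. KERA, the keratan sulfate proteoglycan of the cornea and the neighbor of LUM on the other side (chr12:91050491-91058024), was 3.18, 3.43 and 3.18 in vector arrays and 3.37, 3.30 and 3.09 in IκBα SR arrays. Its groups covered nearly the same range, with a difference of -0.01 (standard error 0.11). OMD, a proteoglycan of mineralized matrix (chr9:92412380-92424471), was 4.35, 4.20 and 4.58 in vector arrays and 4.60, 4.37 and 4.31 in IκBα SR arrays. It also overlapped, with a difference of 0.05 (standard error 0.13).

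Epiphycan and osteoglycin belong to the third class. EPYC, a dermatan sulfate proteoglycan of growth cartilage and the last gene of the chromosome 12 run (chr12:90963682-91004972), was 3.78, 3.78 and 4.10 in vector arrays and 3.78, 3.78 and 3.75 in IκBα SR arrays. Its difference of -0.12 (standard error 0.10) fell to -0.01 without the third vector array. OGN, known from bone and cornea (chr9:92383268-92404699), had the identical value, 4.19, on all 6 arrays. The 9 genes other than LUM thus differed between the groups by -0.12 to 0.05, with a median of -0.00074, and the median over all genes was 0.

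The 9 genes other than LUM lay below the median gene in both groups. Brightness depends on the probes as well as on the RNA, so this places them on the array and does not rank them against each other. In bulk RNA, a transcript in few cells and a low level in every cell cannot be told apart. Values identical on all 6 arrays, seen here in FMOD and OGN, occurred in 6.97% of all genes, and 27.4% were identical across the 3 arrays of 1 group or more. Among the 7 chosen genes with a single highest vector array it was array 3 in 5 of them, and among the 6 with a single highest IκBα SR array it was array 2 in 4 of them, LUM and DCN included. The same arrays were the highest in 51.0% and 46.5% of all genes below the median level that had a single highest array, and in 29.0% and 31.0% of those at or above it. The part of this array-wide pattern in the spread of the chosen genes was not tested.

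The genes around the 4 chromosomal positions moved in both directions. Of the 5 nearest measured protein-coding genes on each side of each run, 40 in all, 4 passed the test as higher and 7 as lower, and the median difference was 0. All 4 that were higher lay on chromosome 12, at 1376 to 2821 kb from the nearest SLRP gene: the stem cell factor gene KITLG by 0.89 (standard error 0.06, adjusted p = 0.0013 from limma), the calcium pump gene ATP2B1 by 0.77 (standard error 0.05, adjusted p = 0.00081), TMTC3 by 0.70 (standard error 0.07, adjusted p = 0.0042) and the endosomal tether gene EEA1 by 0.45 (standard error 0.07, adjusted p = 0.017). The nearest measured gene on each side of the run did not share the direction of LUM. CCER1, 11.5 kb from EPYC, differed by -0.0030 (standard error 0.06). BTG1, an antiproliferative gene 1000 kb from DCN, fell by 0.60 (standard error 0.04, adjusted p = 0.0010). DCN, KERA and EPYC lie between these and LUM, with mean differences within 0.12 in either direction. CCER1, DCN, KERA and EPYC lay below the median gene in both groups, where a change could go unseen. Over the 14 nearest protein-coding genes at or above the median level, within 4.12 Mb of LUM, 7 were higher, 1 was lower and the median difference was 0.13.

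**Figure D2:**
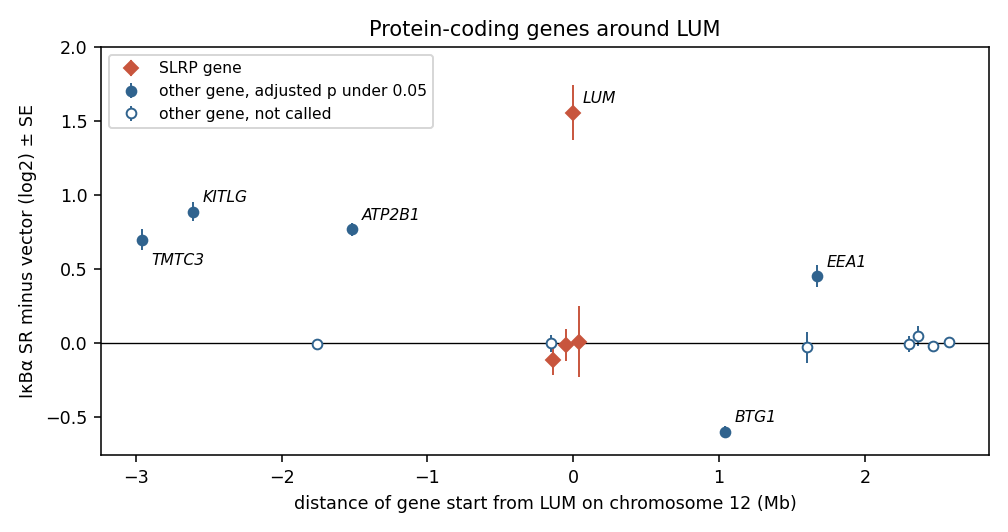
Difference between IκBα SR and vector arrays (log2, vertical axis) of protein-coding genes by the distance of their start from LUM on chromosome 12 (Mb, horizontal axis); diamonds are SLRP genes, filled circles other genes with an adjusted p under 0.05, open circles other genes not called, and error bars the standard error from limma (3 arrays per group). LUM stands at 1.56 while DCN, KERA and EPYC beside it lie between -0.12 and 0.01.

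On chromosome 1, beside FMOD and PRELP, 0 of 10 neighbors were higher and 3 were lower. They were the myogenic factor gene MYOG, which fell by 1.17 (standard error 0.14, adjusted p = 0.0063 from limma), MYBPH, which fell by 0.70 (standard error 0.10, adjusted p = 0.010), and the calcium pump gene ATP2B4, which fell by 1.55 (standard error 0.07, adjusted p = 0.00041). The other 7 neighbors did not pass the test, among them the nearest on each side, CHIT1 (0.01) and OPTC (0.06), and the genes that fell lay 151 to 257 kb from FMOD or PRELP. On chromosome 9, beside OGN, OMD and ASPN, 0 of 10 were higher and 3 were lower (SPTLC1 by -0.18, NOL8 by -0.16 and BICD2 by -0.41), and beside BGN on the X chromosome 0 of 10 passed the test in either direction.

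The pattern of LUM over the 6 arrays was compared with that of 11204 genes above the median level, by the root mean square of the differences between mean-centered log2 values. The nearest was SNORD114-4, a small nucleolar RNA of an imprinted chromosome 14 cluster, at a distance of 0.11 from LUM and a difference between the groups of 1.60. TNNC1, the slow and cardiac muscle troponin C (distance 0.13, difference 1.35), and IRS1, the adaptor of the insulin receptor (distance 0.14, difference 1.72), followed. SERPINH1, the chaperone of collagen folding (distance 0.15, difference 1.43), and MXRA5, a matrix protein with leucine-rich repeats (distance 0.16, difference 1.35), completed the 5 nearest. In LUM and in all 5, IκBα SR array 2 was the highest of its group, by the smallest margin in MXRA5 (11.26 against 11.25). These genes were picked by the same values, so their differences are a description. SERPINH1 lies on chromosome 11, between CPT1A and RAB30, where 55 of 66 protein-coding genes at or above the median level were higher, 0 were lower and the median difference was 1.42. The bounds of this stretch were set after its values were seen. Of the 14 nearest such genes around IRS1, 11 were higher and 0 lower, with a median of 0.35. The part of these surroundings in the SERPINH1 and IRS1 values was not tested.

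**Figure D3:**
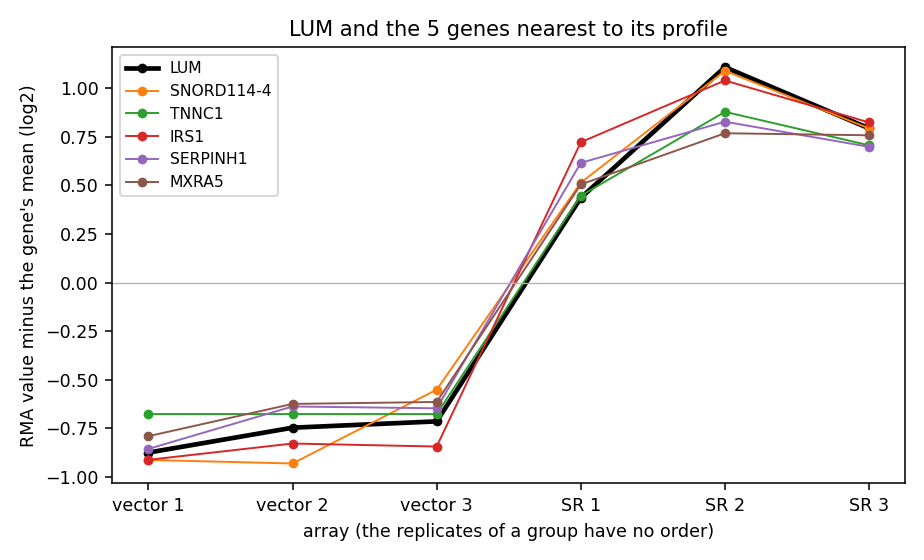
RMA value minus the mean of each gene over the 6 arrays (log2, vertical axis) on the 3 vector and 3 IκBα SR arrays (horizontal axis), for LUM (thick line) and the 5 genes whose profile lies nearest to it; lines only join the points of 1 gene. In all of them IκBα SR array 2 is the highest, and LUM has the widest spread among the 3 IκBα SR arrays, 5.76 to 6.43.

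Beyond the 10 chosen genes, the family list held OPTC, CHAD, NYX, TSKU, PODN, PODNL1 and ECM2. Of these 7, 1 was higher, 0 were lower and 6 did not pass the test, and the median difference was 0.0029. TSKU, which encodes the secreted protein tsukushi, read 7.39, 7.25 and 7.33 in vector arrays and 8.46, 8.65 and 8.56 in IκBα SR arrays. The TSKU groups were more than a log2 unit apart, with a difference of 1.24 (standard error 0.06, adjusted p = 0.00055 from limma). TSKU lies in the same stretch of chromosome 11 as SERPINH1, and of its 14 nearest protein-coding genes at or above the median level 12 were higher and 0 lower, with a median difference of 1.09. The part of that stretch in the TSKU value was not tested. The other 6 genes of the list lay below the median gene in both groups, as did the 9 chosen genes other than LUM, and differed by -0.02 (CHAD) to 0.06 (OPTC).

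The genes that act with SLRP proteins were counted next, in lists of textbook genes. Over the 142 measured of 144 genes, 26 were higher, 31 were lower and 85 did not pass the test, and the median difference was -0.0013. The called share was 40.1%, against 18.3% of all genes and 34.2% of genes at or above the median gene, and 60 of the 142 lay below the median gene in both groups. Since the lists were chosen with earlier results known, nothing is read from this share.

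**Figure D4:**
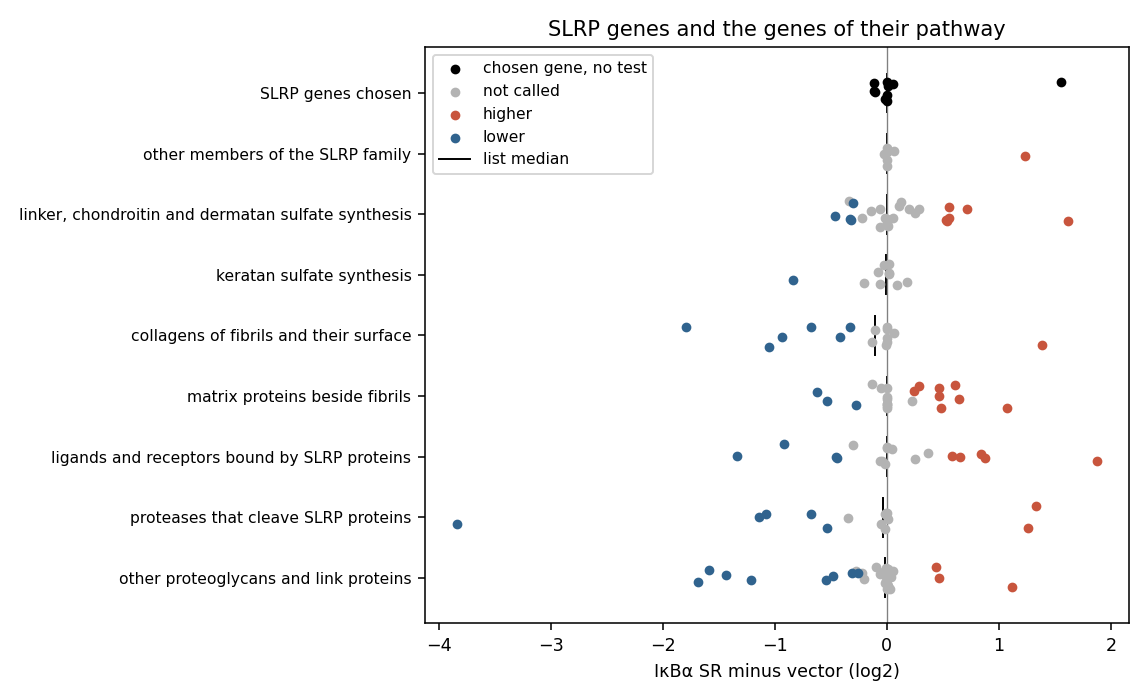
Difference between IκBα SR and vector arrays (log2, horizontal axis) of each gene in the SLRP set and in the lists of its pathway (vertical axis); black points are the chosen genes, which have no test, colored points genes that passed an adjusted p of 0.05 in limma as higher or lower, gray points genes not called, and vertical bars list medians. All list medians lie between -0.10 and 0.0029, and LUM at 1.56 stands apart from the other 9 chosen genes.

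SLRP core proteins are finished by the addition of sugar chains. Of 26 measured genes of linker, chondroitin and dermatan sulfate synthesis, 6 were higher, 4 were lower and 16 did not pass the test. Both epimerases that turn chondroitin into dermatan sulfate, the form carried by decorin and biglycan in most tissues, were among those higher. DSEL read 7.61, 7.98 and 7.94 in vector arrays and 9.48, 9.44 and 9.48 in IκBα SR arrays, a rise of 1.62 (standard error 0.11, adjusted p = 0.0012 from limma), and DSE rose by 0.71 (standard error 0.03, adjusted p = 0.00033). UGDH, which makes the glucuronic acid precursor, rose by 0.56 (standard error 0.02, adjusted p = 0.00015). Around UGDH and DSEL the 14 nearest genes at or above the median level also moved upward, with medians of 0.55 (12 higher) and 0.76 (13 higher). Around DSE the median was 0.32 (5 higher, 2 lower). The part of these surroundings was not tested. CSGALNACT2, which starts chondroitin chains, fell by 0.46 (standard error 0.03, adjusted p = 0.0012). UST, which sulfates uronic acid, fell by 0.32 (standard error 0.03, adjusted p = 0.0045), and XYLT2, which places the first sugar of the linker, fell by 0.33 (standard error 0.05, adjusted p = 0.011). Of the 14 nearest genes at or above the median level, 6 were lower and 0 higher around CSGALNACT2, with a median of -0.21. Around XYLT2, 5 were lower and 1 higher, with a median of -0.09. The part of the surroundings in these falls was not tested. DCN, BGN and EPYC, whose core proteins carry such chains, had mean differences within 0.12 in either direction. They lay below the median gene in both groups, where a change could go unseen, and the standard error of DCN was 0.24.

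Of 10 genes of keratan sulfate synthesis, the chain that lumican carries in the cornea, 0 were higher, 1 was lower and 9 did not pass the test, and 6 lay below the median gene in both groups. The gene that was lower was FUT8, which adds core fucose to N-glycans, and it fell by 0.83 (standard error 0.08, adjusted p = 0.0038 from limma). LUM was thus higher while no gene of this list passed as higher, although without vector array 1 a pair of them did (2 higher).

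Collagen is the main partner of lumican. Of 15 measured collagens of fibrils and their surface, 1 was higher, 6 were lower and 8 did not pass the test, and the median difference was -0.10. COL1A1, the fibril collagen that lumican is best known to bind, read 5.20, 5.12 and 5.07 in vector arrays and 5.03 in each IκBα SR array, a difference of -0.10 (standard error 0.04, adjusted p = 0.16). The gene that was higher was COL12A1, a collagen of fibril surfaces, which rose by 1.39 (standard error 0.05, adjusted p = 0.00022). COL6A3, of the beaded filaments that decorin and biglycan bind, fell by 1.80 (standard error 0.06, adjusted p = 0.00021), COL14A1, another collagen of fibril surfaces, by 0.68 (standard error 0.02, adjusted p = 0.00011), and COL5A1, which limits fibril diameter, by 0.42 (standard error 0.02, adjusted p = 0.00021). LUM was thus higher in cells in which 6 of the 7 called collagens were lower. COL6A1 and COL6A2, named after their values were seen, were like COL6A3 among those lower. COL6A3 averaged 4.58 in IκBα SR arrays, near the array medians over all features, and detection above background was not assessed. The called share of this list was 46.7%, against 18.3% of all genes and 34.2% of genes at or above the median gene. Nothing is read from it.

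Of 21 other matrix proteins found beside fibrils, 8 were higher, 3 were lower and 10 did not pass the test. Those higher included TNC, tenascin C, by 1.07 (standard error 0.04, adjusted p = 0.00021 from limma), THBS1, thrombospondin 1, by 0.65 (standard error 0.01, adjusted p = 1.7e-05), and FN1, fibronectin, by 0.48 (standard error 0.03, adjusted p = 0.00073). Those lower were FBN1, fibrillin 1, by -0.62 (standard error 0.01, adjusted p = 3.7e-05), MATN2, matrilin 2, by -0.53 (standard error 0.06, adjusted p = 0.0059), and LOXL2, a crosslinking oxidase, by -0.28 (standard error 0.03, adjusted p = 0.0060). Of the 14 nearest genes at or above the median level around MATN2, 8 were lower and 1 higher, and the median was -0.32. Around TNC, 8 were higher and 2 lower, and the median was 0.35. The part of these surroundings was not tested.

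Of 18 ligands and receptors that SLRP proteins bind, 5 were higher, 4 were lower and 9 did not pass the test. TGFB2, a ligand that decorin and biglycan bind, read 10.58, 10.60 and 10.43 in vector arrays and 12.46, 12.37 and 12.41 in IκBα SR arrays, a rise of 1.88 (standard error 0.06, adjusted p = 0.00013 from limma). TGFB1 differed by -0.30 (standard error 0.08, adjusted p = 0.075). EGFR, a receptor of decorin, rose by 0.88 (standard error 0.04, adjusted p = 0.00033), with 11 of its 14 nearest genes at or above the median level also higher and a local median of 0.60. P2RX7, a receptor of biglycan, rose by 0.84 (standard error 0.07, adjusted p = 0.0022). MET, another receptor of decorin, fell by 1.34 (standard error 0.04, adjusted p = 0.00015), with 7 of its 14 nearest such genes lower and a local median of -0.40. ITGA2, the integrin subunit through which lumican has been reported to act on cells, fell by 0.92 (standard error 0.06, adjusted p = 0.00083), and its partner ITGB1 by 0.46 (standard error 0.06, adjusted p = 0.0093), a call that was lost when all clusters of the gene were averaged (highest adjusted p over the alternatives = 0.15). Of the Toll-like receptors of biglycan, TLR2 differed by -0.06 (standard error 0.04, adjusted p = 0.51), and TLR4, named after its values were seen, rose by 0.65 (standard error 0.08, adjusted p = 0.0067). Around TLR4, 11 of the 14 nearest such genes were higher and 1 lower, with a local median of 0.35. Around TGFB2, 7 were higher and 1 lower, with a local median of 0.16. The part of these surroundings was not tested. The receptors of decorin thus split between both directions, while the integrin genes named for lumican both fell. ITGA2 averaged 4.57 in IκBα SR arrays, near the array medians over all features, and detection above background was not assessed.

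Of 14 proteases that cleave SLRP proteins, 2 were higher, 5 were lower and 7 did not pass the test. Below the median gene in both groups lay 7 of the 14. MMP2, a gelatinase that cleaves decorin, read 12.86, 12.92 and 12.90 in vector arrays and 8.93, 9.15 and 9.10 in IκBα SR arrays, and so fell by 3.84 (standard error 0.07, adjusted p = 3.7e-05 from limma). MMP14, a membrane protease that cleaves lumican and activates MMP2, fell by 1.14 (standard error 0.03, adjusted p = 0.00011), and MMP9 by 1.08 (standard error 0.07, adjusted p = 0.00092). MMP9 averaged 4.44 in IκBα SR arrays, near the array medians over all features, and detection above background was not assessed. Of the 14 nearest genes at or above the median level, 6 were lower and 0 higher around MMP2. Around MMP9, 5 were lower and 0 higher, and around MMP14, 4 were lower and 2 higher. The local medians were -0.34, -0.24 and -0.12, and the part of these surroundings was not tested. The aggrecanase genes ADAMTS1 and ADAMTS5 rose by 1.33 (standard error 0.04, adjusted p = 0.00013) and by 1.26 (standard error 0.09, adjusted p = 0.0014). ADAMTS4, the other aggrecanase gene of the list, named after its values were seen, differed by -0.35 (standard error 0.12, adjusted p = 0.15). The 3 named matrix metalloproteinases were picked as genes called lower with the smallest p, so nothing is read from their shared direction. In the same list MMP3, MMP12 and MMP13 did not pass the test. Of the aggrecanase genes, ADAMTS1 and ADAMTS5 were higher and ADAMTS4 did not pass the test.

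Of 31 other proteoglycans and link proteins, 3 were higher, 8 were lower and 20 did not pass the test, and 17 lay below the median gene in both groups. VCAN, the large chondroitin sulfate proteoglycan versican, rose by 1.12 (standard error 0.03, adjusted p = 0.00015 from limma), and the heparan sulfate proteoglycans SDC2 and GPC4 rose by 0.43 (standard error 0.02, adjusted p = 0.00052) and 0.46 (standard error 0.05, adjusted p = 0.0035). GPC6, another glypican, fell by 1.68 (standard error 0.07, adjusted p = 0.00031), SDC4, another syndecan, by 1.44 (standard error 0.12, adjusted p = 0.0019), and HSPG2, the basement membrane proteoglycan perlecan that PRELP binds, by 1.21 (standard error 0.06, adjusted p = 0.00039). Genes of heparan sulfate proteoglycans thus moved in both directions. GPC6 averaged 4.45 in IκBα SR arrays, near the array medians over all features, and detection above background was not assessed. Of the 14 nearest genes at or above the median level, 7 were lower and 0 higher around each of GPC6, SDC4 and SDC2. The local medians were -0.32, -0.31 and -0.32, and the part of these surroundings was not tested.

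Markers of other cell types were read beside the LUM difference. Of 12 fibroblast markers 0 were higher and 4 were lower (COL15A1, PDGFRB, THY1 and FAP, the last a call that was lost when any of 5 arrays was left out, highest adjusted p over the alternatives = 0.14 from limma), and their summed level, on a log2 scale, was 13.4 to 13.7 in vector and 13.7 to 13.8 in IκBα SR arrays, without overlap. MFAP5 carried that sum. PDGFRA and PDPN read 3.59 and 3.89 on all 6 arrays, below the median gene, where a change could go unseen. Of 10 measured chondrocyte, tendon and bone markers 1 was higher and 2 were lower, and their summed level was 13.4 to 13.6 in vector and 12.6 to 12.8 in IκBα SR arrays, carried by SOX9, which fell by 0.94 (standard error 0.08, adjusted p = 0.0019). The gene that was higher, RUNX2, kept its call in 9 of 17 alternatives (highest adjusted p = 0.14). Of 14 muscle and rhabdomyosarcoma markers 6 were higher and 3 lower, with summed levels of 17.56 to 17.57 in vector and 18.1 to 18.2 in IκBα SR arrays, carried mainly by ACTC1. Those lower were MYOG, MYF5 and MYMK, and FGFR4 kept its call as higher in 7 of 17 alternatives (highest adjusted p = 0.18). Of 11 measured blood and endothelial markers 0 were higher and 3 lower, with summed levels of 14.5 to 14.6 in vector and 10.0 in IκBα SR arrays, carried by LAPTM5, and PTPRC, the pan-leukocyte marker, read 3.56 on all 6. Below the median gene in both groups lay 8 of the 12 fibroblast and 7 of the 10 chondrocyte, tendon and bone markers. The same held for 9 of the 11 blood and endothelial markers and 5 of the 14 muscle and rhabdomyosarcoma markers. The part of these marker levels in the LUM difference was not tested. The MYOD1 call among the muscle markers was lost when any of 5 arrays was left out (highest adjusted p over the alternatives = 0.10 from limma).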

How the data were processed

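RNA from 3 RH30 vector and 3 RH30-IκBα SR cultures was measured on the Human Transcriptome Array. The deposited log2 values came from RMA (background correction, normalization between arrays and probe summarization), run in the Affymetrix Expression Console per the submitters' notes. The sources used here give neither versions nor the annotation's genome build. The table held 70523 features, and the platform annotation gave 23781 of them a single symbol, 1543 several and 45199 none. RefSeq's table of GRCh38.p14 served to update symbols and to give gene coordinates, and the brightest cluster per symbol over all 6 arrays was kept, giving 22411 genes. Groups were taken from the sample titles.

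IκBα SR was compared with vector by lmFit and eBayes of limma 3.58.1 in R 4.3.3 on the deposited values, two-sided, with Benjamini-Hochberg adjustment over all genes and a threshold of 0.05. The fit was first tested on simulated data with known changes. Lists were read off that fit as counts and medians. The genes described and all lists were chosen with earlier results of these data known. Of each list, up to 3 genes per direction with the smallest p were named, and up to 2 not called that SLRP proteins are best known to bind. Spread in these tests is that between the deposited values of 3 cultures per group, and the number of arrays limits precision. Some named genes had identical values across a group, such as MMP14, COL14A1, COL5A1 and KITLG in IκBα SR arrays. ATP2B1, UST and P2RX7 did so in vector arrays. The SD of such a group is 0 as deposited, so standard errors and adjusted p of these genes may be too small. Summed marker levels are the log2 of summed linear values. Upstream windows of 250 bases came from RefSeq promoter sequences of GRCh38.p14. Protein features were not analysed here.

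Alternatives were a second quantile normalization, centering on array medians, other rules for the cluster of a gene, leaving out dim genes, a trended robust eBayes, array weights, every cluster on its own, the methods' t-test, a fold threshold, the replicate number as a block, each array left out and 10 neighbors per side. Leaving out genes identical on all arrays, and the genes of the chromosome 11 stretch, was added after the data were seen.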

Additional observations from a re-analysis of the deposited data

How the results depend on the processing

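LUM stayed higher in IκBα SR cells under all 11 alternatives that could be run for it, at 1.39 to 1.73, and those 2 bounds came from leaving out single arrays. NFKBIA stayed between 1.94 and 2.04 under 17 alternatives and passed the test in each. The replicate numbers did not pair the arrays, since deviations of same-numbered arrays correlated at 0.12, -0.22 and -0.20. With the replicate number as a block, 1327 genes were higher and 1123 lower over all genes. Of the list and marker genes named in the text, XYLT2, LOXL2, GPC4, ITGB1, MYOD1, FAP, FGFR4 and RUNX2 lost their calls. For the chromosome neighbors outside those lists, calls under the block are not reported here. The lower calls were then 2 in place of 4 in chondroitin and dermatan sulfate synthesis, 2 in place of 4 in ligands and receptors, 3 in place of 5 in proteases and 5 in place of 8 in other proteoglycans. With single arrays left out, the counts over all genes were 1629 to 2010 higher and 1360 to 1781 lower, and those over the pathway lists 22 to 26 higher and 27 to 32 lower. Requiring a 1.5-fold change left 14 higher and 16 lower pathway genes, with 2 higher and 0 lower in chondroitin and dermatan sulfate synthesis, 3 higher and 1 lower in matrix proteins, 2 lower in ligands and receptors, and 1 higher and 4 lower in other proteoglycans. Leaving out dim genes gave 2 lower proteases and 1 higher gene of keratan sulfate synthesis, and the methods' t-test without adjustment gave 2 of the latter. Leaving out the chromosome 11 stretch left 0 higher genes among the other SLRP genes. With 10 neighbors per side, 7 were higher and 9 lower of 80. After a second quantile normalization or centering on medians, BGN, FMOD and OGN, flat as deposited, differed by 0.005 to 0.009. The cause was not tested for any of these.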
